A study of Mus musculus with 2 samples.

Results

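The core apolipoproteins are 10 genes for protein components of plasma lipoproteins, Apoa1, Apoa2, Apoa4, Apoa5, Apoc1, Apoc2, Apoc3, Apoc4, Apoe and Apoh. They were taken by symbol from the 13326 gene symbols of the expression tables, and all 10 were listed in both libraries. Liver RNA was sequenced from male C57BL/6J mice aged 12 weeks that lacked the adiponectin gene (Adipoq-/-) and from wild-type (WT) males of the same strain and age. All animals had been fasted overnight. RNA from 9 to 10 mice of a genotype was combined into 1 library, so each genotype is 1 value per gene, no test across animals is possible and no difference has a replicate check. Adipoq, sought as an adipocyte marker, was not among the listed symbols. No value of it was analysed here, and the genotype of each library rests on its label.

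Apolipoproteins are amphipathic proteins that coat lipoprotein particles, keep their lipids soluble in plasma and steer the particles to lipases, lipid transporters and cell receptors. The A group is tied mainly to high-density lipoprotein (HDL), and the C group and apolipoprotein E move between HDL and the triglyceride-rich very-low-density lipoproteins (VLDL). Hepatocytes make most of these proteins. Apoh, which encodes beta-2-glycoprotein I, is no relative of the others by structure and is known as a phospholipid-binding plasma protein.

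Expression is given in FPKM, sequenced fragments divided by transcript length and by a measure of library size, so levels of different genes are per length. Which measure of library size was used is not known here. At a level of 1 FPKM or above, 11325 genes were found in the Adipoq-/- and 11749 in the WT library, and summed FPKM came to 891964 and 798170. The depth behind the values is unknown. Differences are given as log2((Adipoq-/- FPKM + 1) / (WT FPKM + 1)). Among the 11985 genes that reached 1 FPKM in either library, this ratio had a median of -0.15, and the relative log2 ratio is the ratio minus that median. The liver markers were in place, with albumin (Alb) at 14031 FPKM in the Adipoq-/- and 17522 FPKM in the WT library.

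The 4 C apolipoprotein genes stood higher in the Adipoq-/- library relative to all genes, and Apoe and Apoa5 stood lower. After correction for transcript length Apoc1 was no longer higher. The log2 ratio of Apoc4 fell from 0.69 to 0.31, of Apoc2 from 0.59 to 0.17 and of Apoc3 from 0.53 to 0.15. Under another length correction Apoc3 was at 0.02. Before correction Apoc1 and Apoc3 lay within the interquartile range of the 109 most abundant genes (0.10 to 0.62), and Apoc4 lay above it. Apoc2, Apoc3 and Apoc4 kept a positive log2 ratio and Apoe and Apoa5 a negative one under each of 13 alternative settings. These varied scaling, filter, pseudocount, transcript length and the handling of repeated symbols, all on the same 2 libraries. The signs of Apoc1, Apoa1, Apoa2, Apoa4 and Apoh changed between the 13 settings. The settings that changed only the pseudocount, the minimum or the repeated symbols moved no member by more than 0.1. Apoc2, Apoc3 and Apoc4 each moved by more than 0.1 under 7 of the 13. On FPKM as deposited 5 members were higher and 5 lower in the Adipoq-/- library, while 33.1% of all genes tested were higher.

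**Figure D1:**
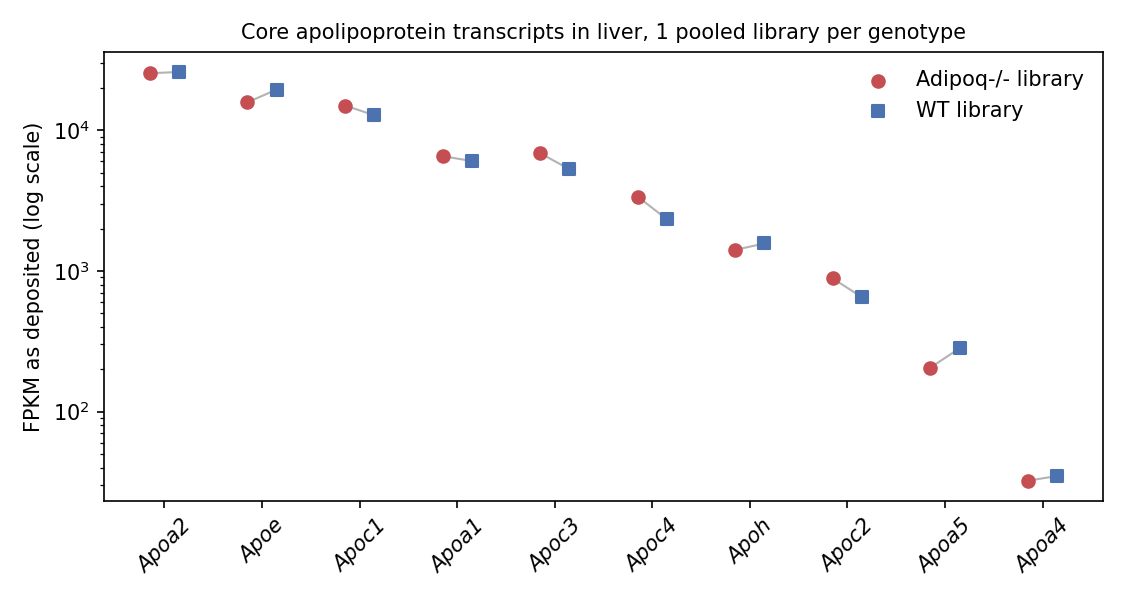
FPKM as deposited (log scale) of each core apolipoprotein in the Adipoq-/- library (circles, left) and the WT library (squares, right), ordered by mean level, with 1 pooled library per genotype and no error bars. Levels run from Apoa2, at 25378 and 25947 FPKM, to Apoa4, at 32.3 and 34.9 FPKM, and the 4 C genes are each higher in the Adipoq-/- library.

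As a set the members were among the most abundant transcripts of the liver. They summed to 75431 FPKM in the Adipoq-/- and 74364 FPKM in the WT library, which was 8.46% and 9.32% of all FPKM. With the major urinary protein genes and the mitochondrial transcripts taken out of the total, the shares were 11.6% in the Adipoq-/- and 11.7% in the WT library. In each library 5 members were among the 30 most abundant genes and 7 among the top 100. The order by level was Apoa2, Apoe, Apoc1, Apoc3, Apoa1, Apoc4, Apoh, Apoc2, Apoa5 and Apoa4 in the Adipoq-/- library. In the WT library Apoa1 stood before Apoc3 and the order was otherwise the same. Whether neighbours in this order differ beyond animal-to-animal spread cannot be said from 1 pool each.

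The C genes encode small exchangeable proteins that tune triglyceride clearance. Apoc4, whose product rides on VLDL and HDL, had the highest ratio, at 3374 FPKM in the Adipoq-/- and 2326 FPKM in the WT library, a 1.45-fold difference as deposited and a relative log2 ratio of 0.69. Apoc2, the activator that lipoprotein lipase needs, was at 883 FPKM in the Adipoq-/- and 649 FPKM in the WT library (1.36-fold, relative log2 ratio 0.59). Apoc3, an inhibitor of lipoprotein lipase and of remnant uptake, was at 6862 and 5288 FPKM in the Adipoq-/- and WT libraries (1.30-fold, relative log2 ratio 0.53). Apoc1, known to hinder lipase action and receptor uptake, was at 14963 FPKM in the Adipoq-/- and 12782 FPKM in the WT library (1.17-fold, relative log2 ratio 0.38). Together the 4 genes held 34.6% of the FPKM of the core apolipoproteins in the Adipoq-/- and 28.3% in the WT library. Their sum was 1.24-fold higher as deposited, at 26082 and 21044.5 FPKM.

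The A genes took no common direction. Apoa2, which encodes an HDL protein, was the most abundant gene of both libraries and nearly level, at 25378 FPKM in the Adipoq-/- and 25947 FPKM in the WT library (relative log2 ratio 0.12). Apoa1, the main structural protein of HDL and the activator of the cholesterol-esterifying enzyme LCAT, was at 6541 and 6039 FPKM in the Adipoq-/- and WT libraries (relative log2 ratio 0.27). Apoa4, a protein of intestinal and hepatic triglyceride-rich particles, was the least abundant member, at 32.3 FPKM in the Adipoq-/- and 34.9 FPKM in the WT library (relative log2 ratio 0.04). An antisense gene on the opposite strand of Apoa4, Gm10680, was listed at a level of the same order, 26.7 FPKM in each library. No use of strand is stated in the sources used here, so reads of the pair may not be fully separated.

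Apoa5 was the lowest of the members by ratio. It encodes a scarce plasma protein that promotes triglyceride hydrolysis by lipoprotein lipase, and it was at 205 FPKM in the Adipoq-/- and 282 FPKM in the WT library. This was 0.727 of the WT level as deposited, with a relative log2 ratio of -0.31. Apoe, the ligand for hepatic uptake of remnant particles through the LDL receptor and LRP1, was at 15783 FPKM in the Adipoq-/- and 19450.3 FPKM in the WT library, or 0.811 of the WT level as deposited (relative log2 ratio -0.15). Its share of the core apolipoprotein FPKM was 20.9% in the Adipoq-/- and 26.2% in the WT library. Apoh was at 1411 FPKM in the Adipoq-/- and 1567 FPKM in the WT library, and this difference equalled the all-gene median.

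A gene was counted as different when its relative ratio was at least 1.5-fold. Apoc4 and Apoc2 passed this in the higher direction, 2 of 10 members, and 0 members passed it in the lower direction. Over all genes tested 6.73% passed in the higher and 2.61% in the lower direction. Apoc2 passed by a narrow margin, at 1.51-fold, and Apoc3 missed it at 1.44-fold. Apoc2 no longer passed under upper quartile scaling or with a minimum of 5 FPKM. On the values as deposited 0 members were 1.5-fold apart, against 3.23% of all genes higher and 6.17% lower. The median relative log2 ratio of the 10 members was 0.19, with 8 of 10 above 0, beside a median of 0 and 50% of genes above 0 over all genes tested.

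Abundant genes as a class were higher in the Adipoq-/- library relative to all genes. The 109 genes whose mean reached 1000 FPKM had a median relative log2 ratio of 0.31 (interquartile range 0.10 to 0.62), 79.8% of them were above 0, 26.6% were at least 1.5-fold higher and 0.917% at least 1.5-fold lower. As deposited 68.8% of them were higher in the Adipoq-/- library. After the length correction described next, the median of the class was 0.07. The 7 members in this class had a median of 0.27, so before that correction they lay near other transcripts of their abundance. Within it Apoc4 lay above the interquartile range, and Apoe and Apoh lay below it.

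**Figure D2:**
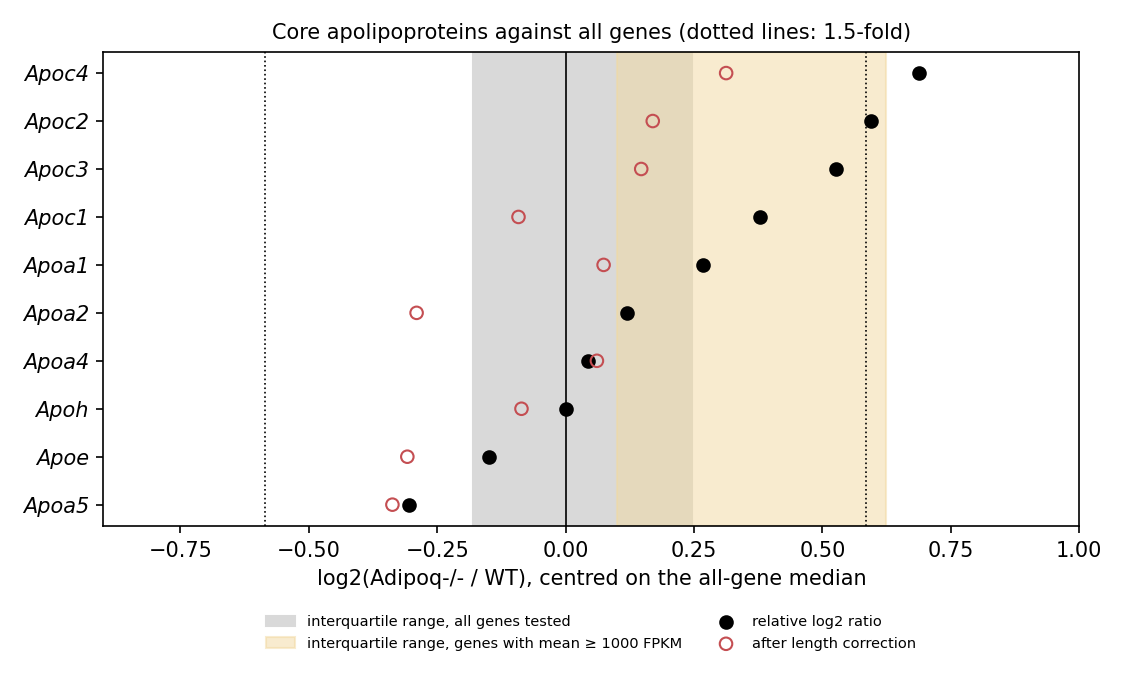
Relative log2 ratio (Adipoq-/- over WT, centred on the all-gene median) of each core apolipoprotein before (filled) and after (open) correction for transcript length. The shaded bands are the interquartile ranges of all genes tested and of those with mean FPKM of 1000 or more, and the dotted lines mark 1.5-fold. Apoc4 and Apoc2 lie past the upper line before correction, and no member lies past either line after it.

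Transcript length moved with these ratios. Across genes, which are not independent replicates, the relative log2 ratio decreased with spliced length (Spearman rho -0.45 over 11571 genes), with medians of 0.40 for the shortest 10% of transcripts and -0.11 for the longest 10%. The members followed the same order (Spearman rho -0.65 over the 10 members, a description only). The C genes have the short transcripts, from 432 nt for Apoc1 to 631 nt for Apoc2. Apoe has 1116 nt, Apoa5 1520 nt and Apoa4 1815 nt by the median of their coding transcripts in GENCODE M21. Apoa2 departed from this order, with 481 nt and a ratio below those of the C genes.

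After correction for length the members' median was -0.01, with 5 of 10 above 0. The corrected log2 ratio was 0.31 for Apoc4, 0.17 for Apoc2, 0.15 for Apoc3 and -0.09 for Apoc1. It was -0.34 for Apoa5, -0.31 for Apoe and -0.29 for Apoa2. No member was then 1.5-fold apart, against 2.74% of all genes higher and 2.96% lower. How far length accounts for the higher C gene values was not tested beyond this correction.

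**Figure D3:**
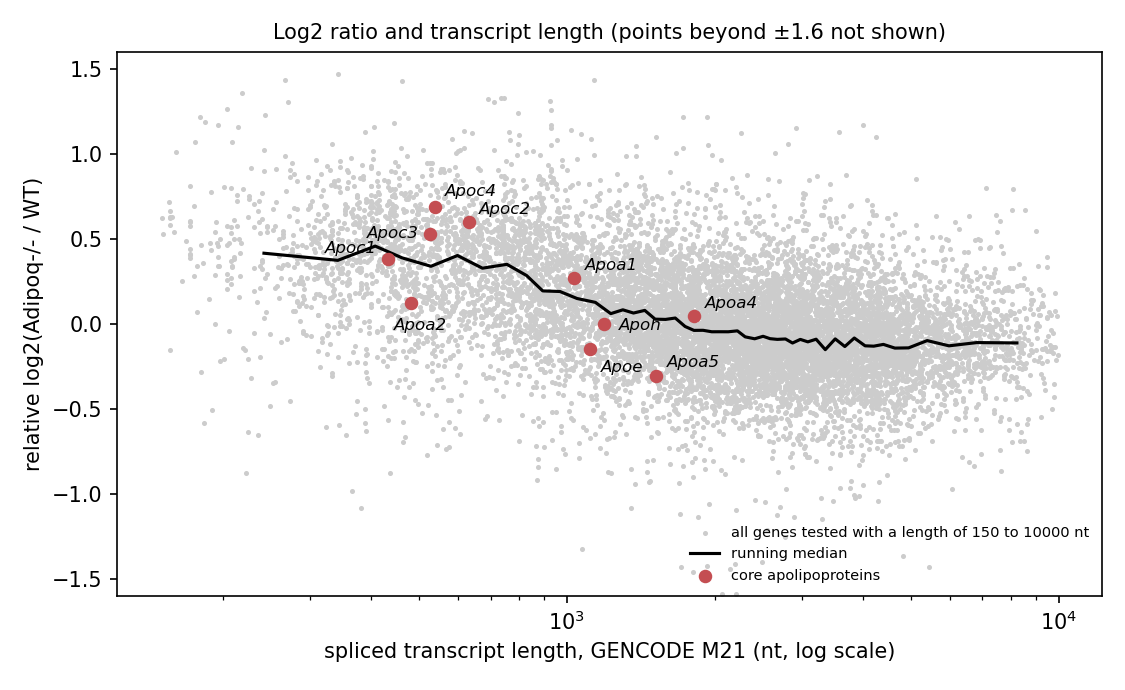
Relative log2 ratio (Adipoq-/- over WT) against spliced transcript length (log scale) for genes with lengths of 150 to 10000 nt (grey), their running median (line) and the core apolipoproteins (red). Apoc4, Apoc2 and Apoc3 lie above the line for their length, and Apoa2, Apoe and Apoa5 lie below it.

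Ratios between members within a library do not depend on how the libraries are scaled. The pairs given here and for the chromosome 9 cluster were picked by hand. Setting a member of low ratio against one of high ratio gives a large difference by construction. Apoe and the C genes Apoc1, Apoc4 and Apoc2 lie next to each other on chromosome 7, yet their balance differed. Apoc1 stood at 94.8% of the Apoe level in the Adipoq-/- and 65.7% in the WT library, a 1.44-fold difference in the ratio that was 1.16-fold after length correction. Apoc4 stood at 21.4% of the Apoe level in the Adipoq-/- and 12.0% in the WT library, a 1.79-fold difference in the ratio that was 1.54-fold after length correction. Apoc4 and Apoc2 moved alike, with 3.82 Apoc4 fragments per Apoc2 fragment (per length) in the Adipoq-/- and 3.58 in the WT library. Their genes overlap an annotated transcript unit that spans both, Gm44805, so reads from it cannot be told apart from reads of either gene.

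The other cluster lies on chromosome 9 and holds Apoa1, Apoc3, Apoa4 and Apoa5. Apoc3 was at 105% of the Apoa1 level in the Adipoq-/- and 87.6% in the WT library, 1.20-fold apart before and 1.05-fold after length correction. Apoa5 was at 2.99% of the Apoc3 level in the Adipoq-/- and 5.33% in the WT library, which makes the ratio of this lipase-promoting gene to the lipase-inhibiting Apoc3 0.561 of its WT value (0.715 after length correction). Apoc2, the lipase activator, kept step with Apoc3, at 12.9% of its level in the Adipoq-/- and 12.3% in the WT library. The Apoa1 to Apoa2 ratio was 25.8% in the Adipoq-/- and 23.3% in the WT library.

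The stretches just upstream of Apoc4 and Apoa5 are shown because these genes had the highest and the lowest ratio of the set. They come from RefSeq promoter windows on GRCm38.p6 (8 of the 10 members matched), cut to the bases before the first annotated exon. Apoc4 is at chr7:19681480-19681710 on the minus strand and Apoa5 at chr9:46268383-46268607 on the plus strand. Capitals mark matches to the motifs named here, searched on both strands.
Apoc4: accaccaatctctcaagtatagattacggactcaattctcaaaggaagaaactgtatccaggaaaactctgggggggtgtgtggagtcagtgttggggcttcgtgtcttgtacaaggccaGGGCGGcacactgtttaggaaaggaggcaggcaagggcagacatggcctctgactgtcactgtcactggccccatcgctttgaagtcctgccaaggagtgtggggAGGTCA
Apoa5: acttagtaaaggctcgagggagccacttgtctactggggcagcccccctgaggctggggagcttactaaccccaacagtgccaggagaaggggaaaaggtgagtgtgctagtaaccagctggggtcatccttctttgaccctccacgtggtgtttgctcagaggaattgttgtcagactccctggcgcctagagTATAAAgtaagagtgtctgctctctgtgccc
The Apoc4 stretch holds GGGCGG, the core of SP1 sites, and AGGTCA, the core hexamer of nuclear receptor sites. The Apoa5 stretch holds TATAAA, the TATA box, which starts 31 bases before the first annotated exon. Neither holds CAAAGTCCA (HNF4A) or TTGCNNAA (C/EBP), and no 2 of the marked matches overlap. Among the 8 members' full windows of 250 bases before and 50 after the start, TATAAA was in 2 (Apoa2 and Apoa5), AGGTCA in 3 (Apoc2, Apoc4 and Apoh) and GGGCGG in 1 (Apoc4). Of all 32851 such mouse windows 13.6% held TATAAA, 16.3% AGGTCA and 35.7% GGGCGG. CAAAGTCCA (0.475% of all windows) and TTGCNNAA (10.8%) were in 0 of the 8, and GTTAAT (7.10%) was in 1 (Apoc2).

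Genes of lipoprotein uptake, VLDL assembly and HDL formation and the regulators of apolipoprotein genes stood mostly below the all-gene median before length correction. On FPKM as deposited the median of every list is lower by a further 0.15, which turns the small positive ones negative. Of 14 measured lipoprotein receptor and uptake genes 3 were above it and 11 below (median relative log2 ratio -0.13), and 1 was 1.5-fold lower, the fatty acid and lipoprotein scavenger receptor Cd36 (9.25 FPKM in the Adipoq-/- and 23.0 FPKM in the WT library). After length correction 8 of the 14 were above 0. The next by size was the heparan sulfate receptor Sdc1, at 34.6 FPKM in the Adipoq-/- and 48.6 FPKM in the WT library. Of 18 genes of VLDL assembly and secretion 6 were above and 12 below (median -0.18, and -0.12 after length correction). Apob, the backbone protein of VLDL, was at 236 FPKM in the Adipoq-/- and 302 FPKM in the WT library (relative log2 ratio -0.20). Mttp, which loads lipid onto it, was at 29.99 and 43.2 FPKM (-0.36). After length correction Apob was at -0.07 and Mttp at -0.22. The lipase Ces1d (329 and 522 FPKM in the Adipoq-/- and WT libraries) and the vesicle coat genes Sec24d (8.30 and 13.0) and Sec23a (12.7 and 19.4) were the farthest from 0 among those with at least 5 FPKM. The 1 gene of this list past 1.5-fold was Cidec, named after its values were seen, at 0.913 FPKM in the Adipoq-/- and 4.73 FPKM in the WT library.

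Of 13 HDL formation genes 2 were above and 11 below the all-gene median (median -0.15, and -0.13 after length correction). Apom, which encodes an HDL carrier of sphingosine 1-phosphate, was at 369 FPKM in the Adipoq-/- and 235 FPKM in the WT library. Pltp, the phospholipid transfer protein, was at 24.5 FPKM in the Adipoq-/- and 76.8 FPKM in the WT library, and the cholesterol exporter Abca1 at 9.54 and 13.7 FPKM. A list of 15 other apolipoprotein genes and their partners had a median of 0.06, with 11 above 0, and Apom (0.80) and Pltp (-1.46) were the only ones of them past 1.5-fold. It includes Pltp, Lcat and the RNA editing enzyme gene Apobec1, which encode no apolipoproteins. Without these 3 genes the median was 0.12, with 10 of 12 above 0. Saa4, an HDL apolipoprotein, was next at 188 FPKM in the Adipoq-/- and 143 FPKM in the WT library (0.54).

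Among 11 plasma lipase genes and their regulators 6 were above and 5 below the all-gene median (median 0.06). Gpihbp1, which anchors lipoprotein lipase to capillary endothelium, was the 1 gene past 1.5-fold, at 43.3 FPKM in the Adipoq-/- and 27.0 FPKM in the WT library. The lipase inhibitor Angptl4 was at 9.75 FPKM in the Adipoq-/- and 7.45 FPKM in the WT library. Pla2g12b, needed for VLDL lipidation in mice, was at 52.4 and 44.1 FPKM. After length correction Gpihbp1 was no longer past 1.5-fold (corrected log2 ratio 0.49), while Angptl4 was (0.64).

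Of 28 transcription factors known to act on apolipoprotein genes 7 were above and 21 below the all-gene median (median -0.12, and -0.04 after length correction). Hnf4a, a main activator of apolipoprotein genes in hepatocytes, was at 71.9 FPKM in the Adipoq-/- and 91.0 FPKM in the WT library (-0.18). After length correction it was at -0.03. The carbohydrate-responsive factor Mlxipl was the 1 gene past 1.5-fold, at 16.5 FPKM in the Adipoq-/- and 31.3 FPKM in the WT library. The forkhead factor Foxa2 was at 3.92 FPKM in the Adipoq-/- and 6.11 FPKM in the WT library.

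**Figure D4:**
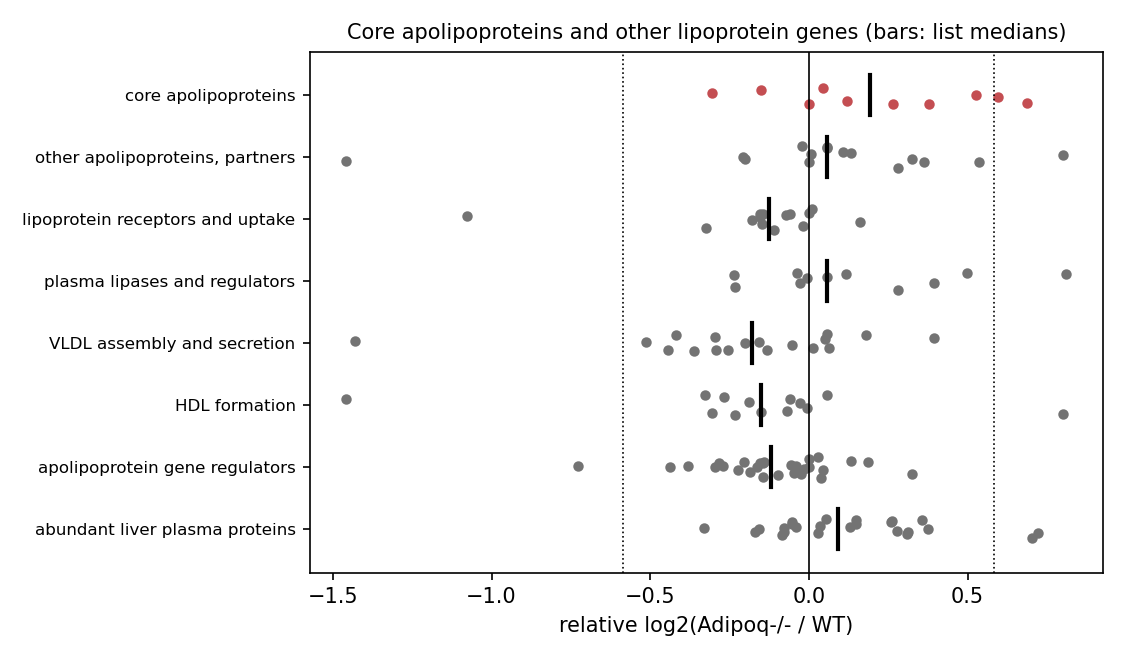
Relative log2 ratio (Adipoq-/- over WT) of each core apolipoprotein (red) and of the measured genes of other lists (grey), with list medians as bars and 1.5-fold as dotted lines. The core apolipoproteins have a median of 0.19, against -0.18 for VLDL assembly and secretion, -0.15 for HDL formation and 0.09 for abundant liver plasma proteins. After length correction, which is not drawn here, these medians are -0.01, -0.12, -0.13 and 0.06 in the same order.

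Other plasma proteins of hepatocytes gave a nearer comparison. Of 24 abundant liver plasma protein genes 15 were above and 9 below the all-gene median (median 0.09, and 0.06 after length correction). The 2 that were 1.5-fold higher were the acute phase protein Orm1 (1339 FPKM in the Adipoq-/- and 900 FPKM in the WT library) and the heme carrier Hpx (2055 and 1401 FPKM). After length correction Hpx stayed past 1.5-fold (corrected log2 ratio 0.67) and Orm1 did not (0.33). Hp, the haemoglobin-binding acute phase protein, was at 1253 FPKM in the Adipoq-/- and 1072 FPKM in the WT library. The relative log2 ratio of Alb, -0.17, was close to that of Apoe (-0.15) before length correction, after which Alb was at -0.12 and Apoe at -0.31.

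Cells other than hepatocytes also make Apoe, and in bulk tissue fewer cells of a type and less RNA per cell cannot be told apart. Of 15 Kupffer cell and macrophage markers 13 were above the all-gene median, while Apoe was lower. The 15 summed to 364 FPKM in the Adipoq-/- and 304 FPKM in the WT library. Lyz2 was the largest part of that sum, at 116 FPKM in the Adipoq-/- and 72.5 FPKM in the WT library. Of 9 stellate cell markers tested 7 were above it, and the 10 in the tables summed to 184 FPKM in the Adipoq-/- and 193 FPKM in the WT library. Their part in the Apoe value was not tested. Enterocytes make Apoa1 and Apoa4. Of 9 enterocyte markers 2 were measured, Fabp2 (142 FPKM in the Adipoq-/- and 183 FPKM in the WT library) and Treh (1.19 and 1.57 FPKM). The others, Vil1, Sis, Lct, Alpi, Cdh17, Slc5a1 and Cdx2, were listed in neither library. Whether any of the Fabp2 or Treh RNA came from enterocytes was not tested. Of 8 adipocyte markers 4 were measured, with a sum of 16.02 FPKM in the Adipoq-/- and 28.3 FPKM in the WT library. Cfd (2.01 FPKM in the Adipoq-/- and 13.3 FPKM in the WT library) and Cidea (0.146 and 1.03 FPKM) were at least 1.5-fold lower. Lipe was also lower, at 2.91 FPKM in the Adipoq-/- and 4.41 FPKM in the WT library. Fabp4, the largest part of the Adipoq-/- sum, went the other way, at 11.0 FPKM in the Adipoq-/- and 9.61 FPKM in the WT library. Fat cells also express Cd36 and Cidec, which were lower above, and the part of fat cell RNA in those values was not tested. Of 8 pancreatic acinar markers 3 were measured. Cela1 (56.9 FPKM in the Adipoq-/- and 28.5 FPKM in the WT library) and Cela2a (1.96 and 0.517 FPKM) were at least 1.5-fold higher. Amy2a5 went the other way, at 0.822 FPKM in the Adipoq-/- and 1.25 FPKM in the WT library. Sinusoidal endothelial markers had a median of -0.06 over 9 genes and lymphocyte markers 0.03 over 3.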

How the data were processed

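Liver mRNA of 2 libraries was measured, 1 Adipoq-/- and 1 WT, each a pool of 9 to 10 mice, and grouped by genotype as labelled. The authors deposited FPKM for each gene symbol. TopHat, Cuffdiff and the builds mm9 and NCBIM37 are named per the submitters' processing notes. Versions, annotation and strand use were not given in the sources used here. Of 13352 rows, 26 repeated a symbol, and of each such pair the row of higher mean FPKM was used. Low values were checked for steps of whole reads. At most 5 of 1298 genes under 1 FPKM had an equal log2 ratio (3 decimals), so reads could not be recovered and depth is unknown.

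Log2 ratios used a pseudocount of 1 FPKM and a minimum of 1 FPKM in at least 1 library, which understates differences of low genes. The length correction subtracted the median ratio in 50 bins of spliced length (median coding transcript, GENCODE M21 basic set, GRCm38), fitted on genes whose mean reached 5 FPKM. It was tested on simulated data with a straight-line length trend and less noise than the spread of these ratios. That test cannot show how well the correction works on the real data. The fit limit of 5 FPKM was set after a first version without it left a length trend in the simulation. Genes outside the members were named by rule, the 3 of each list farthest from 0 with at least 5 FPKM, plus Apob, Alb, Mttp and Hnf4a. A few genes chosen this way are not reported here. The members and lists were chosen with earlier results of these data known. Protein sequences were not used here. Python 3.11.15, numpy 2.4.6 and pandas 2.3.3 were used.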

Additional observations from a re-analysis of the deposited data

How the results depend on the processing

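No paired analysis was possible because each genotype has 1 library, and no library could be left out. A value was taken as unmoved within 0.1 on the log2 scale. The median of the members (0.19) was 0.042 on FPKM as deposited, -0.12 at equal sums, 0.014 at equal sums without Mup, core apolipoprotein and mt- transcripts, -0.12 centred on abundant genes, and -0.013 after length correction. Length corrections added after seeing the data gave -0.059 (longest coding transcript) and -0.061 (curve over genes whose mean reached 100 FPKM). Members above 0 numbered 8 in the main setting and, in the same order of settings, 5, 4, 5, 4, 5, 4 and 4. Members past 1.5-fold numbered 2 in the main setting and, in that order, 0, 1, 0, 1, 0, 0 and 0, with 1 under upper quartile scaling and 1 at a minimum of 5 FPKM. Apoa5 is the 1 past 1.5-fold at equal sums and when centred on abundant genes. The cause of these shifts was not tested beyond their construction. The members' share of FPKM was 10.2% in the Adipoq-/- and 10.4% in the WT library without Mup symbols, 9.44% and 10.4% without mt- transcripts, and 11.6% and 11.7% without both. The ratio ranged over 13 alternatives from 0.19 to 0.72 for Apoc4, 0.14 to 0.62 for Apoc2, 0.02 to 0.55 for Apoc3, -0.46 to -0.12 for Apoe and -0.62 to -0.25 for Apoa5. Depth is unknown, so no counting error could be set beside any value.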

Other observations

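Protein-coding genes that flank the clusters, looked up after the values of the members were seen, were far less abundant than the apolipoprotein genes. Beside the chromosome 7 cluster, Tomm40, a mitochondrial import channel gene next to Apoe, was at 12.4 FPKM in the Adipoq-/- and 13.9 FPKM in the WT library. Clptm1, on the side of Apoc2, was at 11.6 FPKM in the Adipoq-/- and 16.3 FPKM in the WT library (relative log2 ratio -0.31). Nectin2, listed under an older symbol, was at 8.74 FPKM in the Adipoq-/- and 10.5 FPKM in the WT library. Bcam went the other way, at 1.58 FPKM in the Adipoq-/- and 1.23 FPKM in the WT library (0.36). Beside the chromosome 9 cluster, Zpr1, the neighbour of Apoa5 and listed under an older symbol, was at 13.0 FPKM in the Adipoq-/- and 10.8 FPKM in the WT library (0.40). The kinase gene Sik3 was at 13.2 FPKM in the Adipoq-/- and 9.71 FPKM in the WT library (0.55), Sidt2 at 40.1 and 40.7 FPKM, and Pafah1b2 at 5.76 and 5.58 FPKM. Bud13 was near the all-gene median, at 1.52 FPKM in the Adipoq-/- and 1.80 FPKM in the WT library (-0.002). Apoa5 and its neighbour Zpr1 thus had relative log2 ratios of opposite sign, -0.31 and 0.40.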
